A study of Homo sapiens with 6 samples.

Results

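Ribosome biogenesis and RNA polymerase I genes were examined by poly(A) RNA sequencing in HT-1080, a cell line established from a human fibrosarcoma. The gene set named 42 genes, and 41 of them were found by symbol among the 22925 genes of the deposited table. The missing gene, BOP1, has no row under that symbol and was not analysed here. The members comprised 11 genes of the Pol I machinery, 10 genes of small nucleolar ribonucleoprotein (snoRNP) proteins and 20 genes of pre-rRNA processing and ribosome assembly factors. The 3 PhenDC3 libraries came from cells given 20 μM PhenDC3 in 1% DMSO for 48 h, and the 3 DMSO libraries from cells given 1% DMSO alone for 48 h. PhenDC3 is a synthetic ligand of G quadruplexes, folded forms that stretches of DNA or RNA with many guanines can take. Both groups are the same cell line, so all 6 libraries represent 1 tumour genome. The labels do not say that the libraries came from separate cultures, so each p-value reflects no more than library-to-library spread, and that spread may be technical.

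Ribosome production begins in the nucleolus, where Pol I copies the ribosomal DNA repeats into a long precursor. Guide snoRNAs bound to core proteins direct its methylation and pseudouridylation, and large assemblies of processing factors cut and fold it while ribosomal proteins join. Ribosomal DNA is rich in G quadruplex motifs, and growing tumour cells keep these genes at high levels. The precursor rRNA itself was not analysed here. Levels are given as normalized counts, that is, the reads of a gene after division by the size factor the authors used for each library. A log2 fold change compares PhenDC3 with DMSO after 1 was added to each value.

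The PhenDC3 libraries held 7371056 to 9386691 reads and the DMSO libraries 12574952 to 14292987, so the PhenDC3 group was shallower. Every member had at least 122 reads in every library. DMSO replicate 3 stood apart from the other DMSO libraries, since its reads differed from theirs by a chi-square of 6.47 and 6.99 for each degree of freedom, while the other pairs within a group gave 2.50 or less. RNA of the mitochondrial genome took 15.4% to 15.5% of reads in PhenDC3 and 3.72% to 3.96% in DMSO. Of 10 mesenchymal markers 9 had a mean of 5 or more. The 10 summed to 35791 to 37155 normalized counts in PhenDC3 and 49351 to 53168 in DMSO, but they did not move together. VIM had means of 13620 in PhenDC3 and 25150 in DMSO, and SPARC, FN1, CDH2, COL5A2 and TWIST1 were also lower. COL5A1 had means of 4795 in PhenDC3 and 3107 in DMSO, and COL6A1, COL1A1 and THY1 were also higher. Of 5 blood markers only CD68 was listed, and summed levels were 7.87 to 19.4 in PhenDC3 and 4.64 to 7.78 in DMSO. Of 3 endothelial markers only VWF was listed, at 0 to 3.94 in PhenDC3 and 0 to 0.778 in DMSO. Of 7 epithelial markers EPCAM, CDH1 and KRT19 were not listed, and the other 4 summed to 2438 to 2684 in PhenDC3 and 2279 to 2801 in DMSO, almost all from KRT8 and KRT18. In such bulk libraries fewer cells of a type and less RNA per cell cannot be told apart.

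The members moved in both directions and by modest amounts. Of the 41 members, 10 rose and 17 fell with PhenDC3 (limma, adjusted p under 0.05), and 14 were not called. Over all 16482 tested genes, 59.6% were called, 29.2% higher and 30.4% lower, so the members' 65.9% lies near the background. Among the 8285 genes at least as abundant as the least abundant member, 71.6% were called, 33% higher and 38.6% lower. The members' log2 changes ran from -0.62 for FBL to 0.80 for RRP12, with a median of -0.16 against -0.017 over all tested genes. A called change of 0.5 or more in size was seen for 3 members, RRP12 as higher and NOP10 and FBL as lower, against 19.7% of all tested genes higher and 18.5% lower by that much. The groups did not overlap in 31 members, against 64.1% of all tested genes. PhenDC3 lay above in 7 of them and below in 24, against 31.5% above and 32.6% below over all tested genes. These shares and the median were not computed for genes as abundant as the members. With a minimum mean of 20 the median log2 change over all tested genes was -0.048. With TMM scaling, computed on the recovered reads of all listed genes, the split was 7 higher and 24 lower. With the authors' size factors it was 10 and 17. Over all 16480 genes tested under TMM scaling, 4459 were higher and 5415 lower. Their median log2 change was -0.058, against -0.017 with the authors' size factors. Under TMM scaling the member calls changed as follows. RRP1, NOB1 and RRP9 were then no longer called, and POLR1E, NAT10, WDR12, PNO1, NOLC1, NOP58 and NHP2 were added as lower. With 1 library left out, the members called ranged from 20 (7 higher, 13 lower, without PhenDC3 replicate 1) to 30 (12 higher, 18 lower, without DMSO replicate 3). Without DMSO replicate 3, PES1 and NOP16 were added as higher and WDR12 and NOLC1 as lower, and GAR1 was no longer called. On the recovered reads edgeR called 27 members (11 higher, 16 lower), against 63% of the genes it tested. This edgeR run also used TMM, but computed on the genes left by its own filter. DESeq2 called 20 members (7 higher, 13 lower), against 39% of the genes it tested.

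**Figure D1:**
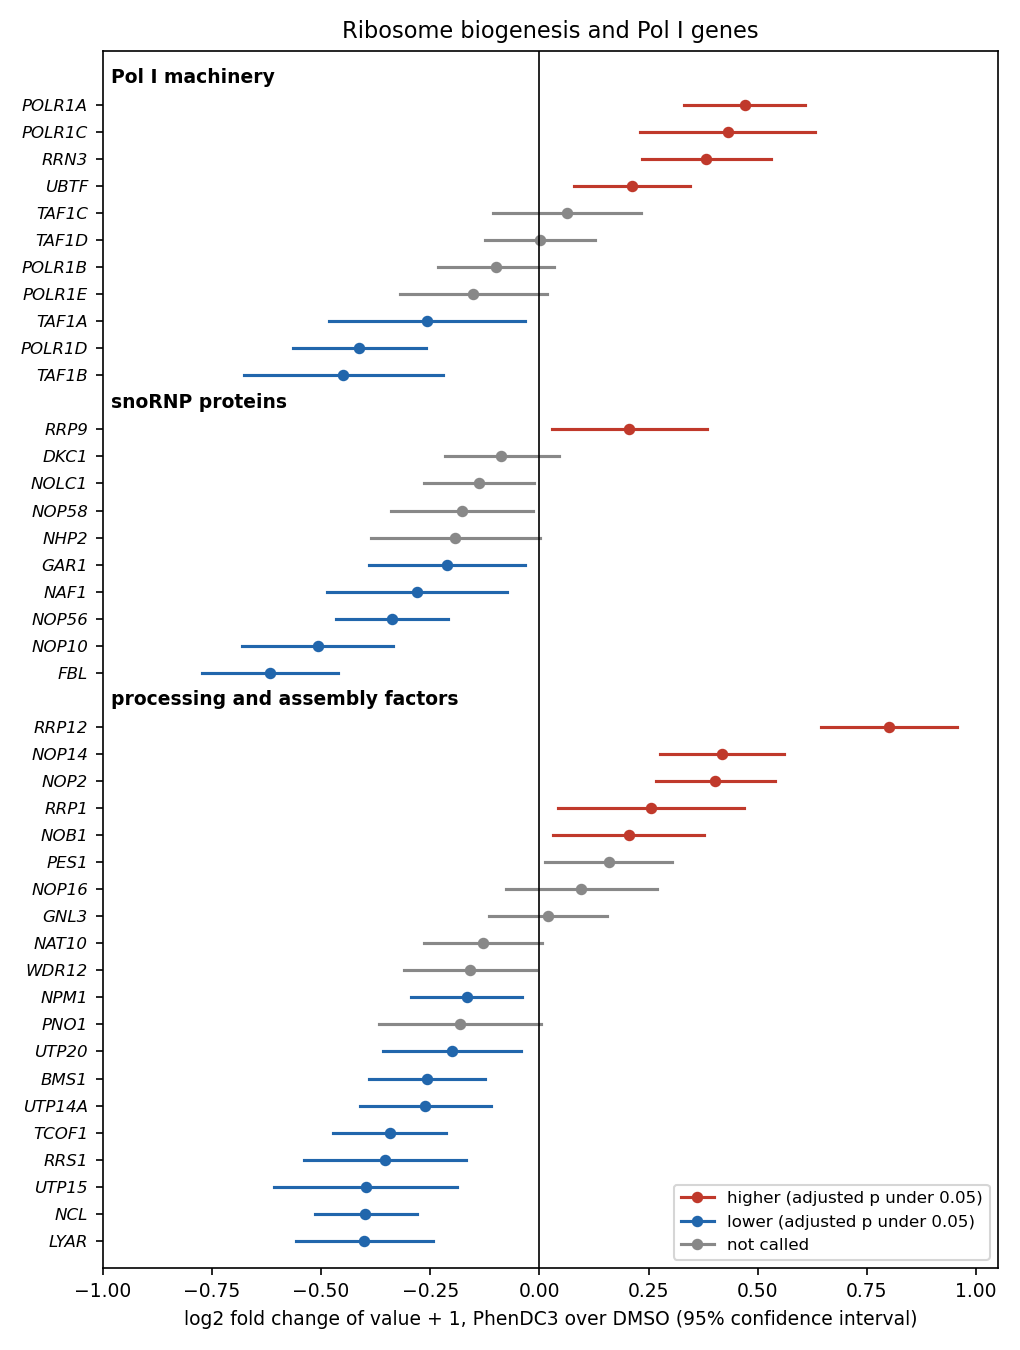
Log2 fold change of each of the 41 members, PhenDC3 over DMSO, with its 95% confidence interval from limma, by class (x axis, log2 scale of the value plus 1; one gene per line). Red marks the 10 members that rose, blue the 17 that fell and grey the 14 not called; RRP12 lies farthest right at 0.80 and FBL farthest left at -0.62.

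Of the 27 called members, 19 kept their call and sign in every alternative run, 7 of them higher and 12 lower. The higher ones were POLR1A, POLR1C, RRN3, UBTF, RRP12, NOP14 and NOP2. The lower ones were POLR1D, TAF1B, FBL, NOP56, NOP10, NCL, TCOF1, LYAR, RRS1, UTP15, BMS1 and UTP14A. The other 8, namely TAF1A, RRP1, NOB1, NPM1, UTP20, RRP9, GAR1 and NAF1, lost it when at least 1 library was left out. These genes had changes of 0.28 or less in size on the log2 scale with all libraries.

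In the Pol I machinery, 4 of 11 genes rose (36.4%) and 3 fell (27.3%), with a median log2 change of 0.002. Over all tested genes 29.2% were higher and 30.4% lower. Among genes at least as abundant as the least abundant member, 33% were higher and 38.6% lower. The class's called share of 63.6% thus lies near the 59.6% over all tested genes. POLR1A, POLR1C, RRN3 and UBTF were higher, while POLR1D, TAF1B and TAF1A were lower. The TAF1A call did not hold in every alternative. POLR1A, which encodes the largest subunit and part of the active site, had 1458, 1495 and 1445 normalized counts in PhenDC3, against 1094, 1092 and 991 in DMSO. The PhenDC3 libraries all lay above the DMSO libraries, by 1.38-fold on the means (limma, log2 fold change 0.47, SE 0.066, adjusted p = 4.21e-06).

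POLR1B, which encodes the second largest subunit and completes the catalytic core, was at 1219 ± 19.6 in PhenDC3 and 1307 ± 41.9 in DMSO (SD, n = 3 each). Its log2 difference was -0.10, with a 95% interval of -0.23 to 0.033, so it was not called (limma, adjusted p = 0.185), although the groups did not overlap. POLR1E, the PAF53 subunit of the polymerase, was at 410 ± 24.8 in PhenDC3 and 455 ± 14.4 in DMSO (SD, n = 3 each), with a log2 interval of -0.32 to 0.018, and was called only with TMM scaling (adjusted p = 0.0477).

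POLR1C and POLR1D are partner subunits shared by Pol I and Pol III, and their transcripts went opposite ways. POLR1C had 505, 436 and 479 normalized counts in PhenDC3, against 302, 367 and 388 in DMSO, a 1.34-fold rise (limma, log2 fold change 0.43, SE 0.096, adjusted p = 0.000681). POLR1D had 865, 862 and 855 in PhenDC3, against 1061, 1122 and 1265 in DMSO, and fell to 0.749 of its DMSO level (limma, log2 fold change -0.41, SE 0.073, adjusted p = 6.28e-05). Neither gene's groups overlapped. POLR1C shares 348 exonic bases with XPO5 on the other strand, a gene at 1246 normalized counts in PhenDC3 and 1273 in DMSO. It also shares 129 bases with YIPF3 on that strand, which was at 991 in PhenDC3 and 852 in DMSO and rose (limma, log2 fold change 0.22, adjusted p = 0.0181). A further 140 bases are shared with LRRC73, at 35.4 in PhenDC3 and 9.16 in DMSO, which rose as well (limma, log2 fold change 1.85, adjusted p = 4.17e-06). Whether strand was used in the counting was not stated, so reads of such pairs cannot be told apart, and their part in the POLR1C rise was not tested.

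RRN3 encodes TIF-IA, which carries Pol I to the promoter and ties its activity to growth signals. It had 890, 875 and 841 normalized counts in PhenDC3, against 673, 693 and 634 in DMSO, with no overlap (limma, log2 fold change 0.38, SE 0.071, adjusted p = 0.000104). Its transcribed pseudogene RRN3P3 rose more, to 97.0 ± 7.84 in PhenDC3 against 41.7 ± 1.31 in DMSO (SD, n = 3 each; limma, log2 fold change 1.20, SE 0.15, adjusted p = 8.54e-07). Together the 2 listed RRN3 copies amounted to 12.5% of the RRN3 value in PhenDC3 and 6.4% in DMSO. How reads were divided between RRN3 and its copies is uncertain, and with the copies added in the ratio became 1.38-fold instead of 1.30-fold.

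UBTF encodes UBF, which bends ribosomal DNA and holds active repeats open. It had 1702, 1636 and 1636 normalized counts in PhenDC3, against 1416, 1373 and 1504 in DMSO (limma, log2 fold change 0.21, SE 0.064, adjusted p = 0.00709). It rose 1.16-fold, and the lowest PhenDC3 library was above the highest DMSO library. Without DMSO replicate 2 the UBTF call only just held (limma, log2 fold change 0.18, adjusted p = 0.0499).

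TAF1A, TAF1B, TAF1C and TAF1D encode the TAF subunits of SL1, which with TBP recognizes the ribosomal promoter. TAF1B had 188, 259 and 234 normalized counts in PhenDC3, against 328, 298 and 298 in DMSO, and fell to 0.737 of its DMSO level (limma, log2 fold change -0.45, SE 0.11, adjusted p = 0.00144). TAF1A fell to 0.837, at 150, 182 and 169 in PhenDC3 against 205, 207 and 187 in DMSO (limma, log2 fold change -0.26, adjusted p = 0.0447). The TAF1A call was lost without PhenDC3 replicate 1 (adjusted p = 0.175), PhenDC3 replicate 3 (0.078), DMSO replicate 1 (0.121) or DMSO replicate 2 (0.139), and was absent in edgeR (adjusted p = 0.0515) and DESeq2 (adjusted p = 0.158). TAF1C was at 512 ± 33.2 in PhenDC3 and 490 ± 28.4 in DMSO (SD, n = 3 each), with a log2 interval of -0.11 to 0.23. TAF1D, the least changed member, was at 2267 ± 78.1 in PhenDC3 and 2263 ± 57.4 in DMSO (SD, n = 3 each), with a log2 interval of -0.12 to 0.13. TAF1D also holds 8 snoRNA genes on its own strand in GENCODE, of which SNORD6 was listed in the table at 6.56 to 8.93 normalized counts in PhenDC3 and 7.59 to 14.0 in DMSO.

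**Figure D2:**
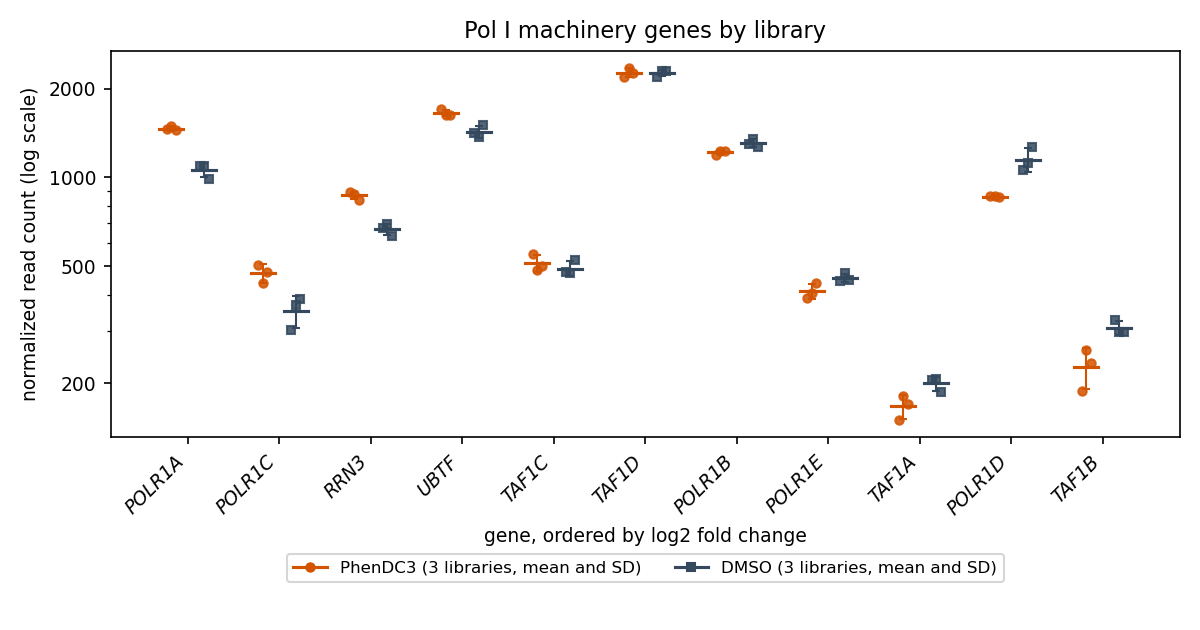
Normalized read counts of the 11 Pol I machinery genes in each library (y axis, log scale), ordered by log2 fold change, with PhenDC3 as orange circles left of DMSO as dark squares; lines and bars are the mean and SD of 3 libraries. POLR1A, POLR1C, RRN3 and UBTF lie above DMSO in every PhenDC3 library, and TAF1C and TAF1D overlap.

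Of the 10 snoRNP proteins 5 fell and 1 rose. Over all tested genes 30.4% were lower and 29.2% higher, and among the genes at least as abundant as the least abundant member 38.6% were lower and 33% higher. Their median log2 change was -0.20, and 9 of the 10 had a fitted change below 0. With TMM scaling 8 were lower and none higher, and with DESeq2 3 were lower and none higher. TMM scaling also lowered the median log2 change over all tested genes, from -0.017 to -0.058. DESeq2 called 39% of the genes it tested, which include low genes that limma left out. The 3 that fell in every alternative were FBL, NOP56 and NOP10.

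Of the members that are core proteins of the box C/D particle, which guides 2′-O-methylation, FBL and NOP56 fell and NOP58 was not called. SNU13, also of this core, is not a member but is in the assembly list below. It fell to 0.797 of its DMSO level (limma, log2 fold change -0.33, adjusted p = 0.0011). FBL encodes fibrillarin, the methyltransferase itself. It had 973, 930 and 996 normalized counts in PhenDC3, against 1352, 1455 and 1654 in DMSO, and fell to 0.650 of its DMSO level (limma, log2 fold change -0.62, SE 0.075, adjusted p = 5.66e-07). Every PhenDC3 library was below the lowest DMSO library. The highest DMSO value came from DMSO replicate 3, and across the fits that left out 1 library the FBL change ran from -0.68 to -0.54.

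NOP56, a scaffold of the same particle, had 2381, 2367 and 2484 normalized counts in PhenDC3, against 2912, 3013 and 3224 in DMSO (limma, log2 fold change -0.34, SE 0.061, adjusted p = 8.05e-05). Its partner NOP58 had 1295, 1514 and 1498 in PhenDC3, against 1453, 1700 and 1717 in DMSO, and the groups overlapped. The NOP58 change of -0.18 (interval -0.34 to -0.015, before adjustment for the number of genes) was not called (limma, adjusted p = 0.0561). It was called without PhenDC3 replicate 2 (adjusted p = 0.0473) or DMSO replicate 1 (0.0108), and with TMM scaling (0.021).

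The H/ACA particle guides pseudouridylation and also stabilizes telomerase RNA. Of its 4 core genes NOP10 changed the most and DKC1 the least. NOP10, the smallest core protein, had 560, 512 and 499 normalized counts in PhenDC3, against 676, 736 and 826 in DMSO, and fell to 0.702 (limma, log2 fold change -0.51, SE 0.083, adjusted p = 2.61e-05). DKC1, the pseudouridine synthase dyskerin, had 1466, 1379 and 1454 in PhenDC3, against 1497, 1523 and 1543 in DMSO, with a log2 interval of -0.22 to 0.044 (limma, adjusted p = 0.244). GAR1 fell to 0.863, at 437 ± 29.7 in PhenDC3 against 506 ± 42.1 in DMSO (SD, n = 3 each; limma, adjusted p = 0.0394). NHP2 was at 504 ± 42.6 in PhenDC3 and 577 ± 75.3 in DMSO (SD, n = 3 each), was not called (limma, adjusted p = 0.0813), and passed without DMSO replicate 2 (0.0401) and with TMM scaling (0.039). NHP2 shares 414 exonic bases with RMND5B on the other strand, which was higher in PhenDC3 (limma, log2 fold change 0.32, adjusted p = 0.00669).

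The GAR1 call was lost without PhenDC3 replicate 1 (adjusted p = 0.16), PhenDC3 replicate 2 (0.0605), DMSO replicate 2 (0.0579) or DMSO replicate 3 (0.128). It was also absent in DESeq2 (adjusted p = 0.0985) and in limma with thinned reads (0.0909). NAF1, which holds the place of GAR1 in the immature particle, fell to 0.820, with 202 to 208 normalized counts in PhenDC3 against 237 to 278 in DMSO (limma, log2 fold change -0.28, adjusted p = 0.0191). Without DMSO replicate 1 its change was -0.21 and not called (adjusted p = 0.131), and DESeq2 did not call it (adjusted p = 0.0826). NOLC1, the Nopp140 chaperone of snoRNPs, was at 2760 ± 77.3 in PhenDC3 and 3037 ± 136 in DMSO (SD, n = 3 each; limma, adjusted p = 0.0558). It passed without DMSO replicate 1 (0.0384) or DMSO replicate 3 (0.032), and with TMM scaling (0.0148).

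RRP9, a protein particular to the U3 snoRNP that starts small subunit processing, was the 1 member of this class that rose. It had 510, 448 and 484 normalized counts in PhenDC3, against 398, 398 and 454 in DMSO, and the groups overlapped (limma, log2 fold change 0.21, adjusted p = 0.0436). The call was absent without PhenDC3 replicate 1 (adjusted p = 0.155), PhenDC3 replicate 3 (0.112), DMSO replicate 1 (0.145) or DMSO replicate 2 (0.155), with TMM scaling (0.107) and in DESeq2 (0.114).

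**Figure D3:**
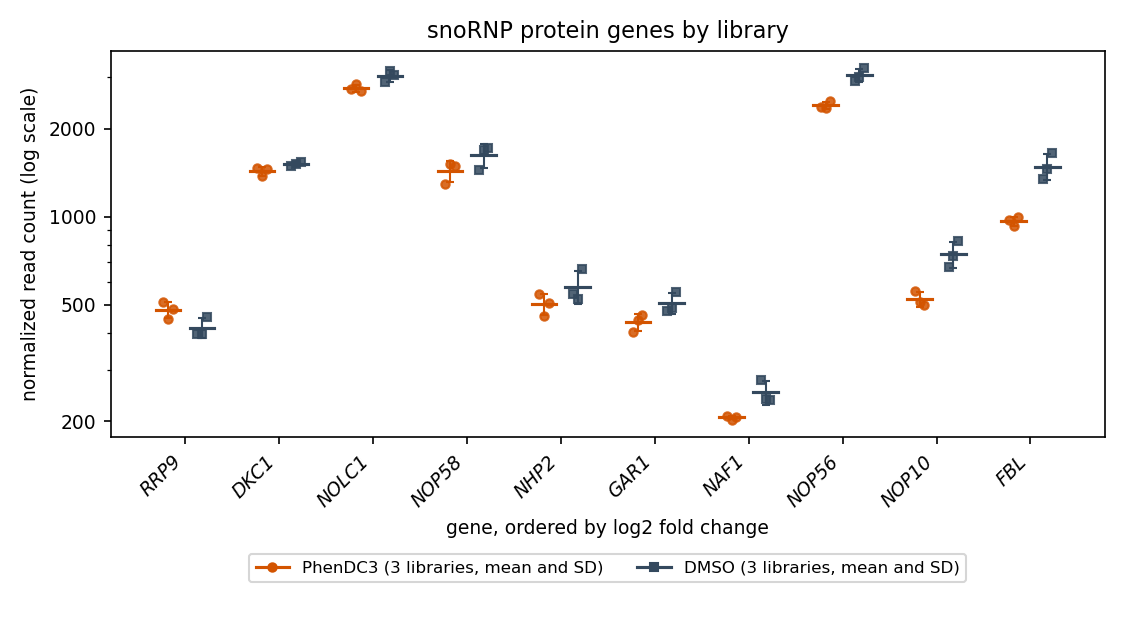
Normalized read counts of the 10 snoRNP protein genes in each library (y axis, log scale), ordered by log2 fold change, with PhenDC3 as orange circles left of DMSO as dark squares; lines and bars are the mean and SD of 3 libraries. FBL, NOP10 and NOP56 lie below DMSO in every PhenDC3 library, and RRP9 is the 1 gene whose mean is higher in PhenDC3.

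Among the 20 processing and assembly factors 5 rose (25%) and 9 fell (45%), with a median log2 change of -0.16. Over all tested genes 29.2% were higher and 30.4% lower. Genes at least as abundant as the least abundant member had 33% higher and 38.6% lower. Their called share of 71.6% is near the 70% of this class. With TMM scaling 3 were higher and 12 lower, while the median over all tested genes also moved down, to -0.058. With 1 library left out at a time, the count of called members ran from 10 (3 higher, 7 lower) to 17 (7 higher, 10 lower). The highest count was without DMSO replicate 3. Over all genes 8937 to 9646 were called in these fits.

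RRP12 rose the most of all 41 members. It encodes a HEAT-repeat protein known, mainly from yeast, for maturation and nuclear export of both subunits. It had 1549, 1446 and 1539 normalized counts in PhenDC3, against 855, 794 and 960 in DMSO, a 1.74-fold rise with no overlap (limma, log2 fold change 0.80, SE 0.074, adjusted p = 1.31e-08).

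Factors of the small subunit were divided. NOP14, of the small subunit processome, had 1256, 1326 and 1282 normalized counts in PhenDC3, against 900, 988 and 1005 in DMSO (limma, log2 fold change 0.42, SE 0.068, adjusted p = 2.43e-05). Exons of NOP14 share 605 bases with NOP14-AS1 on the other strand, which amounted to 15.7% of the NOP14 value in DMSO and rose as well (limma, log2 fold change 0.94, adjusted p = 8.2e-08). Other members of that assembly fell, namely UTP15, UTP14A, UTP20 and BMS1.

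UTP15, of the subcomplex that also assists Pol I transcription, had 198, 217 and 244 normalized counts in PhenDC3, against 275, 309 and 283 in DMSO (limma, log2 fold change -0.40, SE 0.10, adjusted p = 0.00197). Its exons share 244 bases with ANKRA2 on the other strand, which was higher in PhenDC3 (limma, log2 fold change 0.60, adjusted p = 7.22e-05). BMS1, the GTPase of the processome, fell to 0.836, at 1436 ± 35.0 in PhenDC3 against 1717 ± 79.0 in DMSO (SD, n = 3 each; limma, adjusted p = 0.00169). UTP14A, whose yeast counterpart activates a processome helicase, fell to 0.834, at 564 ± 15.0 in PhenDC3 against 676 ± 13.2 in DMSO (SD, n = 3 each; limma, adjusted p = 0.00392). UTP20 was at 735 ± 20.6 in PhenDC3 and 847 ± 71.8 in DMSO (SD, n = 3 each; limma, log2 fold change -0.20, adjusted p = 0.0278).

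The UTP20 call was lost without PhenDC3 replicate 1 (adjusted p = 0.0885), PhenDC3 replicate 3 (0.0627), DMSO replicate 1 (0.125) or DMSO replicate 2 (0.125), and in DESeq2 (0.0619). NOB1 is the nuclease that makes the last cut of 18S rRNA, and PNO1 is the protein that holds that site closed. NOB1 had 675, 609 and 702 normalized counts in PhenDC3, against 537, 554 and 632 in DMSO, with overlap (limma, log2 fold change 0.21, adjusted p = 0.0391). It was not called without PhenDC3 replicate 1 (adjusted p = 0.102), PhenDC3 replicate 3 (0.178), DMSO replicate 1 (0.163) or DMSO replicate 2 (0.125), nor with TMM scaling (0.101) or DESeq2 (0.0913). PNO1 was at 345 ± 29.9 in PhenDC3 and 390 ± 18.0 in DMSO (SD, n = 3 each), with a log2 interval of -0.37 to 0.004 (limma, adjusted p = 0.0847; 0.0377 with TMM scaling). NAT10, which acetylates 18S rRNA, was at 1245 ± 54.4 in PhenDC3 and 1363 ± 26.7 in DMSO (SD, n = 3 each), with a log2 interval of -0.27 to 0.005 (limma, adjusted p = 0.0896; 0.028 with TMM scaling).

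Factors of the large subunit were also divided. NOP2, a cytosine methyltransferase of 28S rRNA, had 1523, 1475 and 1521 normalized counts in PhenDC3, against 1117, 1100 and 1202 in DMSO, a 1.32-fold rise (limma, log2 fold change 0.40, SE 0.065, adjusted p = 2.1e-05). RRS1, which helps to place the 5S rRNA particle, fell to 0.778, at 549, 536 and 575 in PhenDC3 against 632, 675 and 827 in DMSO (limma, log2 fold change -0.35, SE 0.089, adjusted p = 0.00196). DMSO replicate 3 had the highest RRS1 value, and the change ran from -0.43 to -0.24 across the fits that left out 1 library.

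RRP1 had 439, 412 and 514 normalized counts in PhenDC3, against 353, 350 and 443 in DMSO, with overlap (limma, log2 fold change 0.26, adjusted p = 0.0366). The RRP1 call was lost without PhenDC3 replicate 1 (adjusted p = 0.0581), PhenDC3 replicate 3 (0.228), DMSO replicate 1 (0.139) or DMSO replicate 2 (0.151), with TMM scaling (0.0814) and in DESeq2 (0.0891). PES1 and WDR12, which with BOP1 form the PeBoW complex, were not called and had fitted changes of opposite sign. PES1 was at 1674 ± 97.8 in PhenDC3 and 1500 ± 108 in DMSO (SD, n = 3 each; limma, adjusted p = 0.0561), and WDR12 at 673 ± 3.63 in PhenDC3 and 752 ± 45.9 in DMSO (SD, n = 3 each; limma, adjusted p = 0.0652). Without DMSO replicate 3 both passed, PES1 as higher (0.22, adjusted p = 0.00247) and WDR12 as lower (-0.19, adjusted p = 0.0228), and PES1 also passed without PhenDC3 replicate 2 (0.0292) and in edgeR (0.0385), and WDR12 with TMM scaling (0.0216).

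NOP16 and the GTP-binding protein GNL3, or nucleostemin, had intervals that spanned 0. NOP16 was at 674 ± 14.4 in PhenDC3 and 633 ± 74.4 in DMSO (SD, n = 3 each), and passed as higher without DMSO replicate 3 (log2 fold change 0.18, adjusted p = 0.0315). GNL3 was at 1753 ± 57.3 in PhenDC3 and 1731 ± 94.8 in DMSO (SD, n = 3 each), with a log2 interval of -0.12 to 0.15.

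NCL encodes nucleolin, which binds pre-rRNA and is known to bind G quadruplexes. It had 11268, 11670 and 11524 normalized counts in PhenDC3, against 14607, 15354 and 15448 in DMSO, and fell to 0.759 with no overlap (limma, log2 fold change -0.40, SE 0.056, adjusted p = 3.91e-06). TCOF1 encodes treacle, which recruits UBF and Pol I to the repeats. It had 1850, 1804 and 1756 in PhenDC3, against 2179, 2376 and 2307 in DMSO (limma, log2 fold change -0.34, SE 0.062, adjusted p = 7.85e-05). LYAR, a nucleolar zinc finger protein, fell to 0.756, at 755, 782 and 720 in PhenDC3 against 932, 961 and 1094 in DMSO (limma, log2 fold change -0.40, SE 0.075, adjusted p = 0.000117).

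NPM1 encodes nucleophosmin, a chaperone of ribosomal particles and histones. It had 6071, 6638 and 6314 normalized counts in PhenDC3, against 6657, 7297 and 7398 in DMSO (limma, log2 fold change -0.17, SE 0.061, adjusted p = 0.0243). NPM1 lost the call without PhenDC3 replicate 1 (adjusted p = 0.107), PhenDC3 replicate 3 (0.0929) or DMSO replicate 2 (0.0901). In GENCODE 45 pseudogenes carry the name of NPM1, and the 22 of them in the table summed to 3268 ± 145 in PhenDC3 and 3790 ± 180 in DMSO (SD, n = 3 each), 51.5% and 53.2% of the NPM1 value. How reads were divided between NPM1 and these copies is uncertain. With the copies added the ratio was 0.881, against 0.891 for NPM1 alone.

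**Figure D4:**
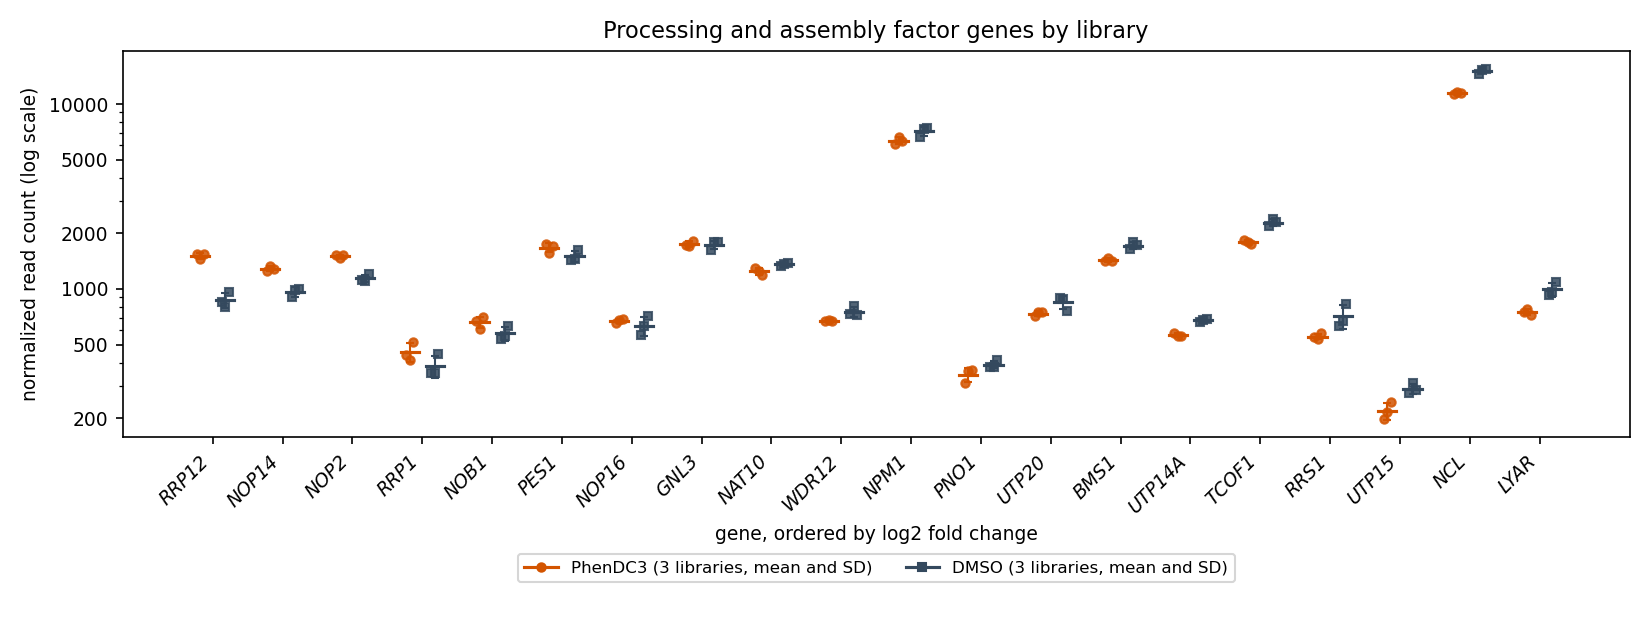
Normalized read counts of the 20 processing and assembly factor genes in each library (y axis, log scale), ordered by log2 fold change, with PhenDC3 as orange circles left of DMSO as dark squares; lines and bars are the mean and SD of 3 libraries. RRP12, NOP14 and NOP2 lie above DMSO in every PhenDC3 library, while RRP1 and NOB1, also called higher, overlap.

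Since PhenDC3 binds G quadruplexes, the promoters of the members were searched for the motif, defined as 4 runs of GGG or longer parted by loops of 1 to 7 bases, on either strand, in RefSeq windows of GRCh38.p14. The windows span 250 bases before to 50 after a start site. Of the 42 genes 34 had a window, and 8 of these (23.5%) held the motif in at least 1 window, against 27.9% of all 27305 genes with a window. Among members with a window it was present in 1 of 9 that rose, 2 of 14 that fell and 5 of 11 not called. The called genes with a motif were UBTF, POLR1D and FBL. The others were GNL3, NHP2, DKC1, PES1 and PNO1. The 250 bases before the start are shown for the called ones, because these are the promoters where a change and a motif coincide. Capitals mark the motif, which lies on the gene's strand for FBL and UBTF and on the other strand (as runs of C) for POLR1D. The windows are chr19:39846380-39846629 (minus strand) for FBL, chr17:44220883-44221132 (minus strand) for UBTF and chr13:27621642-27621891 (plus strand) for POLR1D.
FBL: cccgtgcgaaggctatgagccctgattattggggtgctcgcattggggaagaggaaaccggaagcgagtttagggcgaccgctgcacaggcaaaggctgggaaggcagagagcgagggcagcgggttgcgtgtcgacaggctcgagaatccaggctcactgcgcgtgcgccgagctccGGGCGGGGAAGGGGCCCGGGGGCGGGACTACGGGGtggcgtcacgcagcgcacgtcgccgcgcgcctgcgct
UBTF: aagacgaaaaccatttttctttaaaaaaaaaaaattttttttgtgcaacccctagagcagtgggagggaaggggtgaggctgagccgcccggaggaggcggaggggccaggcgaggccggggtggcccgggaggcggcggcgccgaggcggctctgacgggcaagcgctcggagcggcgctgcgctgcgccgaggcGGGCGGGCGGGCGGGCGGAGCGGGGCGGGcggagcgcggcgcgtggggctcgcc
POLR1D: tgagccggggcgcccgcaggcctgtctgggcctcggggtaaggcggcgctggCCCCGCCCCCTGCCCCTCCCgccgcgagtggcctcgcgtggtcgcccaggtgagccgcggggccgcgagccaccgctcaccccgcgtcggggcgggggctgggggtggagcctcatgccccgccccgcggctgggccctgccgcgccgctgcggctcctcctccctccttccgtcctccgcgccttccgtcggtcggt
The FBL motif covers 35 bases and that of UBTF 29, both within the 75 bases before the start, while the 20 bases of the POLR1D motif begin 198 bases before it. UBTF and POLR1D each have a second start site whose window also holds the motif. Of these genes UBTF rose, while FBL and POLR1D fell, and the largest rise with a window but no motif was that of POLR1A. A match is a description of these letters, and whether a quadruplex forms there was not tested.

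The rest of the pathway was described with 6 lists of other genes, 136 of 138 of which were tested. In all, 31 were higher and 47 lower, a called share of 57.4% against 59.6% over all tested genes. The split between higher and lower differed between the lists. All tested genes had 29.2% higher and 30.4% lower, and genes at least as abundant as the least abundant member 33% and 38.6%. The called share was 43.8% for other Pol I genes, 52.6% for the small subunit and 48.6% for the large subunit. It was 63.6% for snoRNP assembly, 64.3% for the exosome and 81.8% for Pol III.

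Other Pol I subunits and regulators had 3 of 16 higher (18.8%) and 4 lower (25%), or 2 and 6 with TMM scaling. SIRT7, a deacetylase that associates with Pol I and ribosomal DNA, was at 735 ± 41.5 in PhenDC3 and 314 ± 28.5 in DMSO (SD, n = 3 each), a 2.34-fold rise (limma, log2 fold change 1.23, SE 0.085, adjusted p = 1.7e-10). SIRT7 shares 105 exonic bases with MAFG on the same strand, which was at 1894 in PhenDC3 and 708 in DMSO. KDM2A, a demethylase known to repress ribosomal DNA, rose 1.47-fold. POLR1H, a small Pol I subunit, fell to 0.649, TBP to 0.764 and the shared subunit POLR2K to 0.756. The shared subunit POLR2E rose 1.15-fold with overlap between the groups.

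The box C/D and H/ACA assembly list had 1 of 11 higher (9.09%) and 6 lower (54.5%), with a median log2 change of -0.26. None was higher with TMM scaling or DESeq2. RUVBL2 and RUVBL1, the ATPases that help to build both particles, fell to 0.537 and 0.653. RUVBL1 shares 344 exonic bases with SEC61A1 on the other strand, which was at 8086 in PhenDC3 and 7344 in DMSO. WRAP53, which carries H/ACA RNAs to Cajal bodies, fell to 0.652, but shares 399 exonic bases with a gene on the other strand. ZNHIT6, an assembly factor of box C/D particles, rose 1.16-fold. The RNA exosome, which trims rRNA precursors, had 1 of 14 higher (7.14%) and 8 lower (57.1%), with a median of -0.21. EXOSC8 fell to 0.450, at 262 ± 29.5 in PhenDC3 against 583 ± 44.9 in DMSO (SD, n = 3 each; limma, log2 fold change -1.15, adjusted p = 2.12e-09), MPHOSPH6 fell to 0.593 and EXOSC3 to 0.612. EXOSC4 rose 1.33-fold.

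Small subunit processome and 40S assembly genes had 8 of 38 higher (21.1%) and 12 lower (31.6%). Without PhenDC3 replicate 3 the list had 4 higher and 9 lower, without DMSO replicate 1 it had 5 and 11, and without a variance trend it had 4 and 6. IMP3, a protein of the U3 snoRNP, fell to 0.560, TSR1 to 0.744 and UTP23 to 0.784, while RRP7A rose 1.61-fold, DHX37 1.43-fold and PDCD11 1.27-fold. IMP3 shares 801 exonic bases with SNX33 on the other strand, which was at 656 in PhenDC3 and 528 in DMSO. UTP23 shares 518 with RAD21 on the other strand, which was at 2439 in PhenDC3 and 3877 in DMSO. Large subunit assembly genes had 7 of 35 higher (20%) and 10 lower (28.6%). The balance depended on the setting. It was 5 higher and 12 lower under TMM of all genes, and 9 and 9 in edgeR, with TMM of filtered genes. Without DMSO replicate 3 it was 13 higher and 9 lower. SENP3, a SUMO protease of the rRNA maturation complex, rose 2.06-fold, PPAN 1.67-fold and DDX51 1.58-fold, while LAS1L, the endonuclease that cuts between the large subunit rRNAs, fell to 0.667, NOC3L to 0.700 and EBNA1BP2 to 0.749. PPAN shares 97 exonic bases with P2RY11 on the same strand, which was at 457 in PhenDC3 and 137 in DMSO.

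Pol III makes 5S rRNA and shares POLR1C and POLR1D with Pol I. Its list had 11 of 22 higher (50%) and 7 lower (31.8%), with a median log2 change of 0.16. CRCP rose 1.75-fold and BRF2 1.63-fold. GTF3A encodes TFIIIA, the factor specific to 5S rRNA genes. It was at 312 ± 21.0 in PhenDC3 and 693 ± 82.6 in DMSO (SD, n = 3 each), a fall to 0.450 (limma, log2 fold change -1.15, SE 0.091, adjusted p = 1.38e-09). POLR3GL fell to 0.579 and POLR3B to 0.631. BRF2 shares 1629 exonic bases with ADGRA2 on the other strand, which was at 55.6 in PhenDC3 and 155 in DMSO. GTF3A shares 181 with MTIF3, also on the other strand, which was at 122 in PhenDC3 and 211 in DMSO.

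**Figure D5:**
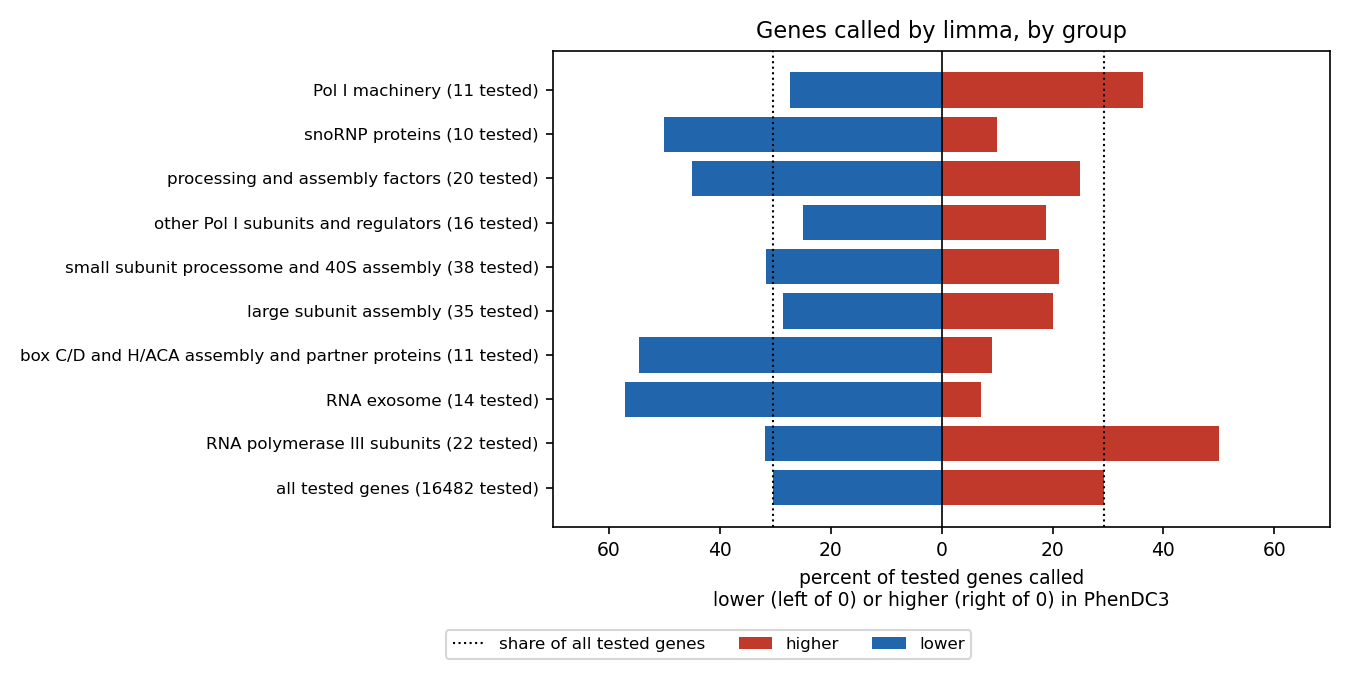
Percent of tested genes called lower (blue, left of 0) and higher (red, right of 0) in PhenDC3 by limma, for the 3 member classes, the 6 other lists and all tested genes, with the number tested beside each name; dotted lines mark the 30.4% lower and 29.2% higher of all tested genes. The snoRNP proteins, the snoRNP assembly list and the RNA exosome reach 50% or more lower, and the Pol III list 50% higher.

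The depth and the mitochondrial share of reads moved with the groups. With every library thinned to 7371056 reads, 10 members were higher and 15 lower. With size factors taken without genes of the mitochondrial genome, 11 were higher and 16 lower. The part of other differences between the groups in these results was not tested.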

How the data were processed

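Poly(A) RNA of 3 PhenDC3 and 3 DMSO libraries was measured. The labels' protocols give TRIzol for extraction and an Illumina stranded mRNA kit. The build hg19 and the programs DESeq2 1.18.1, featureCounts, STAR 2.7, TopHat2 2.0.11, Cuffdiff, Cufflinks 2.2.1 and CASAVA are listed, without roles, per the submitters' processing notes. No annotation or strand setting was stated in the sources used here. The 6 deposited columns of signal are read counts per gene that the authors scaled by 1 size factor per library. All values (100%) were whole multiples of the smallest one above 0 (relative tolerance 1e-06), so whole reads were recovered. The authors' deposited log2 fold changes and adjusted p-values were compared with the DESeq2 run made here on the recovered reads. For all 41 members the log2 fold changes were equal to 3 decimals and the adjusted p-values within 0.5%, so the DESeq2 values printed are those of the authors' deposited table and no separate evidence.

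The test was limma (3.58.1, under R 4.3.3) with a variance trend, applied to log2(value + 1) for genes with a mean of 5 or more, with Benjamini-Hochberg adjustment over 16482 genes and a threshold of 0.05. The pseudocount understates the change of low genes. Alternatives were DESeq2 1.42.0 and edgeR 4.0.16 run on recovered reads, other pseudocounts, filters and scalings, thinned reads, a replicate block and leaving out each library. TMM scaling named alone was limma with TMM factors from all genes, while edgeR took its TMM factors from filtered genes. The fit was also run on simulated data in which, unlike here, few genes changed. That run does not test the scaling or changes as small as those of most members. Members were matched by the table's symbols, and list genes also through reference names. The members, lists and rules were chosen with earlier results of these data known, and the lists came from general knowledge. All members are named, with up to 3 called rises and 3 called falls per list. A list gene that this rule names is not reported here. SNU13, named outside this rule, and the overlapping genes and copies named in the text were chosen after their values were seen. Gene overlaps, snoRNA hosts, pseudogenes and chromosomes come from GENCODE release 29 and promoters from RefSeq, both on GRCh38. No coordinates are given for the table's genes, which were counted on another build. Python 3.11.15 with pandas 2.3.3 and matplotlib 3.10.9 made tables and figures.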

Additional observations from a re-analysis of the deposited data

How the results depend on the processing

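Every alternative was planned. No called change of any member turned its sign under any alternative. Of 246 values of the 41 members with 1 library left out, 209 kept their side of the threshold, 28 lost the call and 9 gained it. Of 492 values under the other settings, 447 kept it, 32 lost it and 13 gained it. The count of called members ran from 19 at an adjusted p under 0.01 to 31 with TMM scaling, against 27. The snoRNP count of 6 was 3 in DESeq2 and 3 at an adjusted p under 0.01, and 4 to 6 with 1 library left out. The lower count at the stricter threshold follows from its construction, and for DESeq2 the cause was not tested. The Pol I count stayed between 6 and 8, and that of the processing factors between 10 and 17. Over all genes, 8058 to 10454 were called (10155 with the replicate block), and 8937 to 9646 with 1 library left out. Whether replicate numbers pair the libraries could not be decided. Deviations of same-numbered libraries from their group means correlated at 0.00788, 0.0712 and 0.027. Such deviations from means of 3 libraries depend on each other, so weak correlations cannot exclude pairing. With the replicate number as a block, 30 members were called, 11 higher and 19 lower, the added ones being PES1, NOP58 and NHP2. Same-numbered libraries were not each other's best match in every case, since PhenDC3 replicate 1 correlated more with DMSO replicate 3 (0.0512). With 3 libraries a group, member calls that were lost without 1 library had changes of 0.28 or less in size on the log2 scale. Depth is lowest for TAF1A, at 122 reads.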
